A study of Mus musculus with 4 samples.

Results

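The circadian clock gene Per1 and 9 genes that work with or under it (Per2, Per3, Cry1, Cry2, Clock, Nr1d1, Nr1d2, Dbp and Bhlhe40) were followed across 4 treatments of mDCT cells, a murine line immortalised from the distal convoluted tubule, the first nephron segment downstream of the loop of Henle. All the cells had been transfected 48 h earlier with human mineralocorticoid receptor (MR) carrying a FLAG tag, so the treatments share that overexpression and no library shows cells without it. The vehicle ethanol and aldosterone at 1 nM and at 100 nM form a dose series of 3 h, and the remaining library had 100 nM of the hormone for as long, preceded 2 h earlier by the MR antagonist spironolactone at 5 µM. The last is called the spironolactone library below, and no library received spironolactone without aldosterone. A pretreatment time of 2 h is recorded for every library, with spironolactone in that library alone. Each treatment had 1 array, so there is no replicate error: every difference is one between 2 libraries, the number of arrays limits its precision, and no p-value, SD or interval is given.

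The genes were chosen by symbol, as probe sets annotated with exactly 1 gene symbol from the list. All 10 were found, with 22 probe sets of the 45037 on the array that are not controls, and they are 10 of 18193 named genes. The brightest probe set of a gene stands for it. A gene entered the comparisons when that probe set's mean log2 signal reached the median over the array, corresponding to 55.9 on the signal scale; 11057 genes did, among them 9 of the 10. Nr1d1 stayed under this filter.

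The mammalian clock is a loop of transcription and repression. CLOCK and its partner BMAL1 (gene Arntl) bind E-boxes and drive the Per and Cry genes, whose proteins return to the nucleus and block that drive, while the REV-ERB receptors (Nr1d1 and Nr1d2) repress Arntl, and DBP and BHLHE40 act on D-boxes and E-boxes. Per1 also answers acute signals, among them corticosteroids and cAMP. In the kidney it is known as an early aldosterone-induced gene that affects sodium transport genes such as that of the alpha subunit of the epithelial sodium channel.

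The promoter windows of Per1 and Cry1 are shown first because of the clock genes above the filter these lay outside the range of their signal neighbours, in opposite directions. They come from RefSeq (build GRCm38.p6), run from 250 bases before to 50 bases after an annotated start, and are written 5′ to 3′ along the gene. RefSeq annotated more than 1 start for Per1; the upstream one has the window chr11:69098699-69098998 (+ strand), the downstream one chr11:69099902-69100201 (+ strand), and Cry1 has chr10:85185005-85185304 (- strand). Capitals mark each match to a motif searched on both strands.
Per1, upstream start: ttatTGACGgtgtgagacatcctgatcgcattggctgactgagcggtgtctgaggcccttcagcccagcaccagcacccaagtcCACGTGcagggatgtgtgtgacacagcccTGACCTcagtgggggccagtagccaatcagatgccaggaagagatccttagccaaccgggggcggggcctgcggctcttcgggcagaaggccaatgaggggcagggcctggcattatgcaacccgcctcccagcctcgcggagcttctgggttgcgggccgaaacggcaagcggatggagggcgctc
Per1, downstream start: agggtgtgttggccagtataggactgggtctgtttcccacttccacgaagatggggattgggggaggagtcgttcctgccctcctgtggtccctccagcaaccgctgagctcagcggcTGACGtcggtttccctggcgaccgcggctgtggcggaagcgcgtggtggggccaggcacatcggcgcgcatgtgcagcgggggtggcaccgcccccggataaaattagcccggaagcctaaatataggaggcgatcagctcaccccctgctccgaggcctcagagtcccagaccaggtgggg
Cry1: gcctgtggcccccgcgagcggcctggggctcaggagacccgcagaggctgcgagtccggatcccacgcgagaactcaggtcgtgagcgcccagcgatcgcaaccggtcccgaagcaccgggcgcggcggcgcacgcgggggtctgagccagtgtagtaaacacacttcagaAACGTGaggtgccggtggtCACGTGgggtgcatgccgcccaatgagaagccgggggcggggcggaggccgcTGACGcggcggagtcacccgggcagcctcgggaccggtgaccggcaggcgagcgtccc
The upstream Per1 window held the E-box CACGTG at position -166, counted from the start, with the core TGACG of the cAMP response element at -246 and the reverse strand of the ROR and REV-ERB core AGGTCA at -137. The downstream Per1 window held TGACG at -132. The Cry1 window held CACGTG at -60, the reverse strand of the E-box variant CACGTT at -79 and TGACG at -8. Of all 32851 windows in the table, 7.15% held CACGTG, 4.68% CACGTT, 20.8% TGACG and 16.3% AGGTCA, so that the shorter ones are common.

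Promoter windows were found for 8 of the 10 genes, 11 windows in all; Per2 and Bhlhe40 had no entry. CACGTG lay in 2 of the 11 (Per1 and Cry1) and CACGTT in 3 (Cry1, Cry2 and Nr1d1). The D-box TTATGTAA lay in 1, that of Per3, at -205 and again at -158, against 0.938% of all windows, and its variant TTACGTAA in 0. The full cAMP response element TGACGTCA, which contains TGACG, lay in 0. The steroid receptor core AGAACA, found in 19% of all windows, and the palindromic steroid response element lay in 0; this says only that these letters are not in these windows. A match is a description of sequence, not of binding.

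Per1 had a signal of 231 in ethanol, 224 with 1 nM aldosterone and 527 with 100 nM aldosterone. In the spironolactone library it was 349, against 527 with 100 nM aldosterone alone. The 100 nM library was the highest of the 4, the spironolactone library came next, and the libraries of ethanol and 1 nM aldosterone lay together at the low end. These levels rest on the 1 Per1 probe set in the annotation. In RNA from a whole culture, fewer cells with a transcript and less of it per cell cannot be told apart.

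For 100 nM aldosterone against ethanol, Per1 differed by 1.19 on the log2 scale, or 2.28-fold. Among the 500 genes nearest to Per1 in mean signal 0 differed by more in that direction, and 95% of those neighbours lay between -0.47 and 0.46. Over all 11057 genes, 51 differed by more. For 100 nM against 1 nM aldosterone the Per1 difference was 1.24 (2.35-fold), with 17 genes above it. For 1 nM aldosterone against ethanol it was -0.04, near the middle of its neighbours, of which 255 of 500 lay higher.

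With spironolactone before aldosterone, Per1 differed from 100 nM aldosterone alone by -0.59, a signal 1.51-fold lower, and 7 of its 500 neighbours lay lower still. Against ethanol the spironolactone library was higher by 0.60 (1.51-fold), and 1 of 500 neighbours exceeded it. The signal difference between 100 nM aldosterone and ethanol that was left in the spironolactone library came to 50.2% on the log2 scale and 40.0% on the linear scale. These comparisons share the 100 nM or the ethanol library, so they are not independent of each other.

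**Figure D1:**
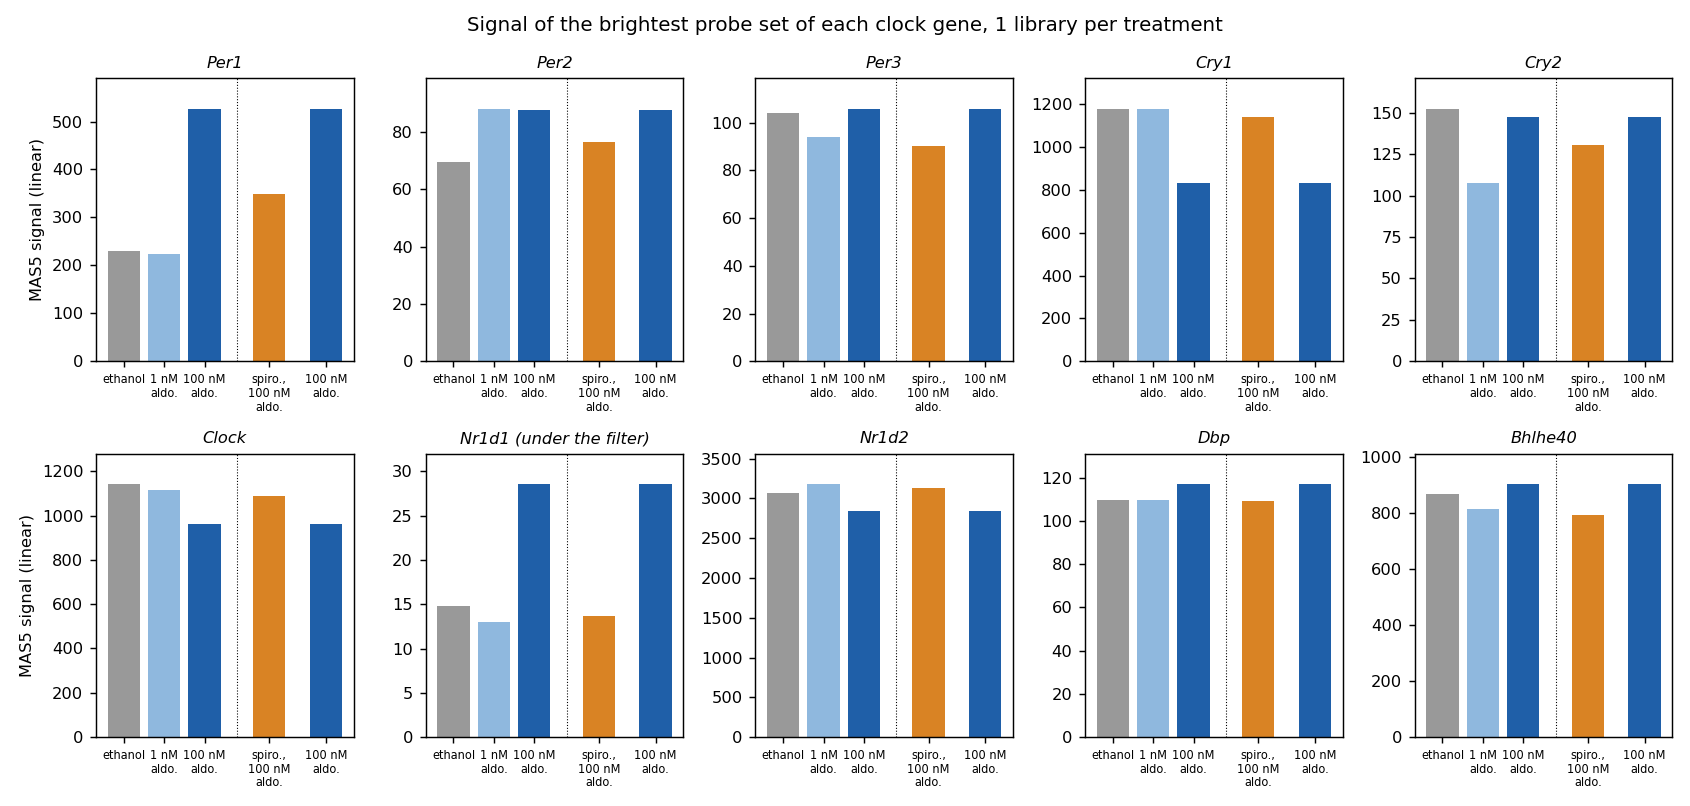
MAS5 signal (linear scale, from 0) of the brightest probe set of each clock gene, 1 bar per library; left of the dotted line the dose series, right of it the spironolactone library beside 100 nM aldosterone alone, whose bar is drawn again. Per1 stood at 349 with spironolactone against 527 with 100 nM aldosterone alone, and Cry1 at 1140.1 against 832.

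Among the clock genes that entered, 1 of 9, Per1, was at least 1.5-fold higher with 100 nM aldosterone than in ethanol, where 2.39% of all genes were. None of the 9 was lower by that much (1.72% of all genes). With 1 nM aldosterone 0 of 9 were at least 1.5-fold higher and 0 lower than in ethanol, where 2.61% and 2.07% of all genes were. For 100 nM against 1 nM aldosterone, Per1 was again the 1 gene of 9 at least 1.5-fold higher (2.04% of all genes) and 0 were lower (1.96%). For spironolactone against 100 nM aldosterone alone, Per1 was the 1 gene of 9 at least 1.5-fold lower (2.51% of all genes) and 0 were higher (1.83%). For spironolactone against ethanol 1 was higher (2.17%), Per1 once more, and 0 were lower (2.03%). With 9 genes these counts stand on Per1 alone, and its fold of 1.51 lies just past the limit of 1.5. The Per1 difference between spironolactone and 100 nM aldosterone alone fell short of that limit after quantile normalization, after centring, and with 16 added to each signal, and the smallest of these in size was -0.57. The Per1 difference between spironolactone and ethanol fell short of it, at 0.57, with 16 added to each signal.

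For 100 nM aldosterone over ethanol 5 of the 9 genes were higher and 4 lower (48.7% and 51.3% of all genes). The median difference over the 9 was 0.02 there, beside 0.00 over all genes. It was -0.03 for 1 nM aldosterone against ethanol, 0.09 for 100 nM against 1 nM, -0.17 for spironolactone against 100 nM aldosterone alone and -0.04 for spironolactone against ethanol, where all genes lay between -0.01 and 0.00. In the comparison with the largest of these medians 6 of the 9 were lower with spironolactone (50.7% of all genes) and 3 were higher (49.3%). The 100 nM library held the highest signal of 4 genes (Per1, Per3, Dbp and Bhlhe40) and the lowest of 3 (Cry1, Clock and Nr1d2). Over all genes it held the highest signal of 25.5% and the lowest of 25.2%.

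**Figure D2:**
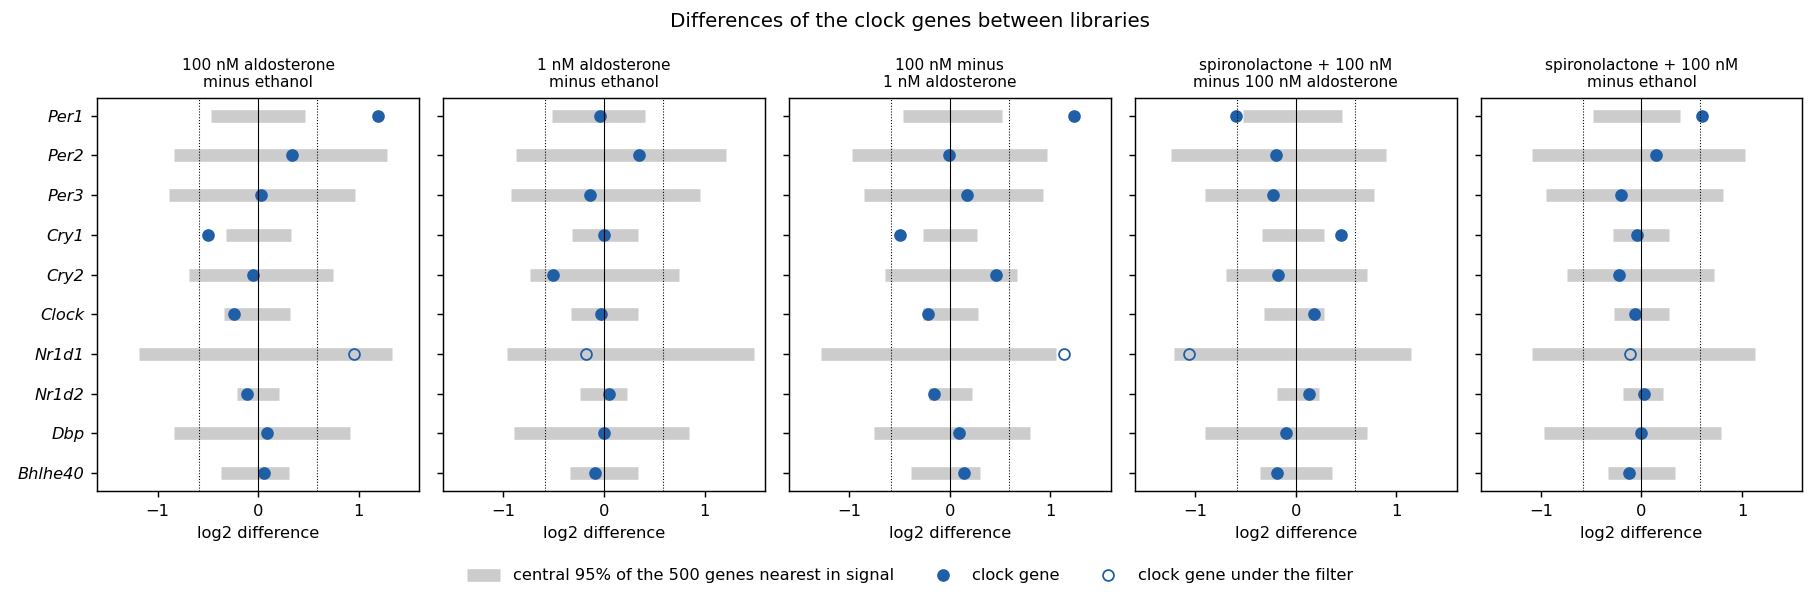
Log2 differences of the clock genes in 5 comparisons (points; hollow for Nr1d1, whose signal is under the filter), with grey bars spanning the central 95% of the 500 genes nearest in signal and dotted lines at 1.5-fold. Per1 lay outside its grey bar in 4 comparisons and Cry1 in 3, on the other side of 0 from Per1 in each of those 3. The 500 genes all lay at or above the filter, so those of Nr1d1 were brighter than it.

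The other Period genes encode partners of PER1 in the repressor complex. Per2 had signals of 69.4 in ethanol, 88.1 with 1 nM aldosterone and 87.8 with 100 nM aldosterone. In the spironolactone library it had 76.5, against 87.8 with 100 nM aldosterone alone. The ethanol library was the lowest, by 0.34 against 100 nM aldosterone, and both doses lay together. The second Per2 probe set, under the filter, had 43.5, 42.1 and 61.3 along the dose series, and 47.6 with spironolactone against 61.3 with 100 nM aldosterone alone. That order is the one seen at Per1, with a difference of 0.49 for 100 nM aldosterone against ethanol, and the brighter probe set did not share it. The remaining probe set, also under the filter, differed by -0.13 there.

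Per3 had 104, 94.2 and 106 in ethanol and with 1 nM and 100 nM aldosterone. With spironolactone it had 90.3, against 106 with 100 nM aldosterone alone. The spread over the 4 libraries was 0.23 on the log2 scale, and each difference lay inside the range of its signal neighbours. Of its 6 probe sets 3 were at or above the filter, and these differed by 0.02, -0.11 and -0.52 for 100 nM aldosterone against ethanol. A probe set under the filter differed by 1.09 in the same comparison, so that the Per3 probe sets gave no common direction.

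The cryptochromes complete the repressor complex, and CRY1 is its strongest repressor. Cry1 had a signal of 1175 in ethanol, 1177 with 1 nM aldosterone and 832 with 100 nM aldosterone. With spironolactone it had 1140.1, against 832 with 100 nM aldosterone alone. The 100 nM library stood apart on the low side and the other 3 lay together. Cry1 differed by -0.50 for 100 nM aldosterone against ethanol, a signal 1.41-fold lower, and 3 of its 500 neighbours were lower still. For spironolactone against 100 nM aldosterone alone it was higher by 0.45 (1.37-fold), exceeded by 1 of 500 neighbours. For spironolactone against ethanol the difference was -0.04. Both larger differences share the 100 nM library, and Cry1 has no second probe set to set beside this one. None of its differences reached 1.5-fold.

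Cry2, the other cryptochrome, followed another order, with 152 in ethanol, 107 with 1 nM aldosterone and 147 with 100 nM aldosterone. With spironolactone it had 131, against 147 with 100 nM aldosterone alone. The 1 nM library was the low one, by -0.51 against ethanol, and 37 of 500 neighbours were lower still. The Cry2 differences lay inside the range of its neighbours in all 5 comparisons.

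Clock encodes the DNA-binding activator that pairs with BMAL1. Its brightest probe set had 1141 in ethanol, 1116 with 1 nM aldosterone and 962 with 100 nM aldosterone. With spironolactone it had 1089, against 962 with 100 nM aldosterone alone. The 100 nM library was the lowest, by -0.25 against ethanol, where 24 of 500 neighbours were lower still. The 2 next brightest probe sets, both above the filter, differed by 0.16 and 0.01 in that comparison, and the dimmest, under the filter, by -0.55. For spironolactone against 100 nM aldosterone alone the 4 differed by 0.18, -0.02, -0.10 and 0.18. The Clock difference therefore depends on the probe set.

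Nr1d2 encodes REV-ERB beta. Its brightest probe set had 3074, 3177 and 2845 along the dose series. With spironolactone it had 3126, against 2845 with 100 nM aldosterone alone. The 100 nM library was again the lowest, by -0.11 against ethanol, inside the range of its neighbours. The second probe set, under the filter, had its lowest signal in the same library: 50.2, 54.6 and 28.9 along the dose series, and 55.5 with spironolactone against 28.9 with 100 nM aldosterone alone. Both probe sets thus ordered the 100 nM library last. Nr1d1, which encodes REV-ERB alpha, had 14.8, 13.04 and 28.5 along the dose series and 13.7 with spironolactone, against 28.5 with 100 nM aldosterone alone. All 4 signals lay under the filter of 55.9, so Nr1d1 was not counted among the 9 and its log2 differences are a description: 0.95 for 100 nM aldosterone against ethanol, 1.13 for 100 nM against 1 nM and -1.06 for spironolactone against 100 nM aldosterone alone. The neighbours were drawn from the genes that entered, so those of Nr1d1 were the 500 dimmest of them and all brighter than Nr1d1. Of these, 34, 9 and 24 differed by more in the same direction. The spread of genes as dim as Nr1d1 was not measured.

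Dbp and Bhlhe40 are E-box driven outputs that feed back on the clock, the first as an activator at D-boxes and the second as an E-box repressor. Dbp had 109.9, 109.7 and 117 along the dose series and 109.3 with spironolactone, against 117 with 100 nM aldosterone alone. The brightest Dbp probe set spanned 0.10 on the log2 scale over the 4 libraries. The second, under the filter, was lowest with 100 nM aldosterone, by -0.35 against ethanol. Bhlhe40 had 867, 815 and 901 along the dose series, and with spironolactone it had 793, against 901 with 100 nM aldosterone alone. The differences of both genes lay inside the range of their neighbours in all 5 comparisons. For Bhlhe40 against ethanol that difference was 0.06 with 100 nM aldosterone and -0.13 with spironolactone.

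**Figure D3:**
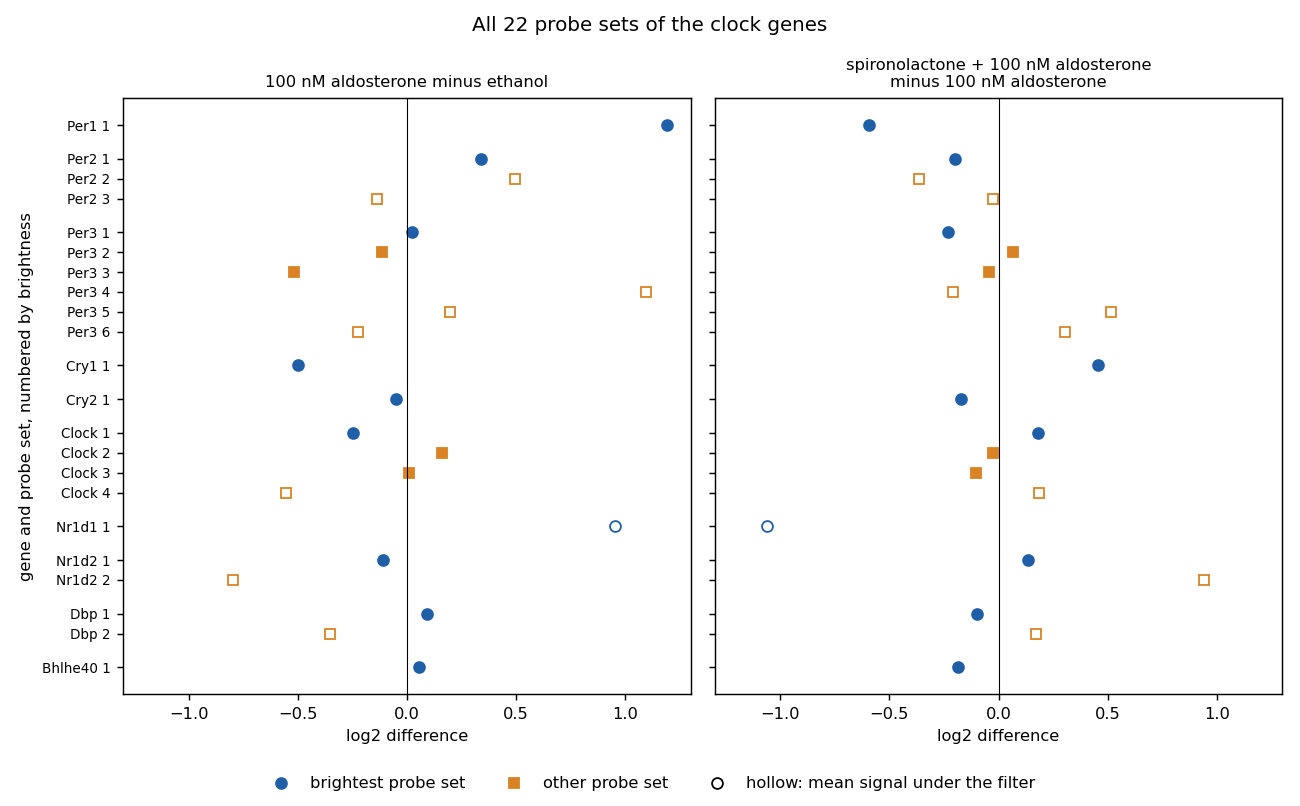
Log2 differences of all 22 probe sets of the clock genes for 100 nM aldosterone minus ethanol (left) and spironolactone minus 100 nM aldosterone alone (right); circles are brightest probe sets, squares the others, hollow symbols lie under the filter. The 4 Clock probe sets lay between -0.55 and 0.16 on the left, and the 6 of Per3 between -0.52 and 1.09.

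The wider clock pathway was described through 23 further genes, of which 21 had a probe set and 17 entered. For 100 nM aldosterone against ethanol 9 of the 17 were higher and 8 lower, with a median of 0.00; 0 were at least 1.5-fold higher (2.39% of all genes) and 2, Btrc and Usp2, lower (1.72%). For spironolactone against 100 nM aldosterone alone 7 were higher and 10 lower, with a median of -0.05; 1, Usp2, was at least 1.5-fold higher (1.83% of all genes) and 0 lower (2.51%). For 1 nM aldosterone against ethanol the median was -0.04 and 0 passed 1.5-fold in either direction (2.61% of all genes higher and 2.07% lower). Of all genes, at any size, 48.7% were higher with 100 nM aldosterone than in ethanol. With spironolactone 49.3% were higher than with 100 nM aldosterone alone.

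Of the activators, Arntl, which encodes BMAL1, had 716, 665 and 707 along the dose series, and 777 with spironolactone against 707 with 100 nM aldosterone alone. Its paralog Arntl2 had 107, 98.4 and 112, and 95.2 with spironolactone against 112 with 100 nM aldosterone alone. With these brightest probe sets neither passed 0.24 in size in any of the comparisons. The second Arntl probe set, with a mean signal of 72.9, differed by -1.12 for 1 nM aldosterone against ethanol, by -0.45 for 100 nM against ethanol and by 0.67 for 100 nM against 1 nM. The second of Arntl2, with a mean of 88.6, differed by 0.46 for 1 nM aldosterone against ethanol, so that for both genes the size and order depend on the probe set. Of the further repressors, Ciart, which encodes an inhibitor of CLOCK and BMAL1, had 620.2, 709 and 664 along the dose series, and the replication-linked Timeless 2343, 2253 and 2487. Ciart differed by -0.22 and Timeless by -0.05 for spironolactone against 100 nM aldosterone alone.

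The nuclear receptors Rora and Rorb, activators at the element that the REV-ERBs repress, were highest in the 1 nM library by their brightest probe sets and not by their second. Rora had 60.9, 87.6 and 66.9 along the dose series, a difference of 0.52 for 1 nM aldosterone against ethanol that its second probe set (-0.05, just under the filter) did not share. Rorb had 287, 348 and 265, a difference of 0.28. The second Rorb probe set, nearly as bright with a mean of 233, differed by 0.09 for 1 nM and 0.37 for 100 nM aldosterone against ethanol and was highest with 100 nM. Among the D-box factors, the activator Tef had 600.1, 650.5 and 721 and the repressor Nfil3 602, 491 and 553. With spironolactone Tef had 611, against 721 with 100 nM aldosterone alone, a difference of -0.24. The second Tef probe set, under the filter with a mean of 51.6, differed by 0.14 there. For 100 nM aldosterone against ethanol it differed by -0.05, beside 0.26 for the brightest.

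The kinases and ubiquitin ligases that set PER and CRY turnover included 6 genes that entered, of which the PER-directed ligase subunit gene Btrc differed most. Casein kinase genes Csnk1d, Csnk1e and Csnk1a1 differed by 0.00, -0.09 and 0.09 for 100 nM aldosterone against ethanol, and their second probe sets by 0.13, 0.13 and 0.08. Btrc had 247, 240.0 and 155 along the dose series, and 186 with spironolactone against 155 with 100 nM aldosterone alone. Its difference for 100 nM aldosterone against ethanol was -0.68, whereas its second probe set differed by 0.14.

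Of the clock outputs, the deubiquitinase gene Usp2 was low in the 100 nM library, like Cry1. It had 169, 175 and 113 along the dose series, a difference of -0.59 for 100 nM aldosterone against ethanol. With spironolactone it had 206, against 113 with 100 nM aldosterone alone, a difference of 0.87. Its second probe set, under the filter, differed by -0.07 and 0.13 in these comparisons. The cell cycle kinase gene Wee1 had 882, 891 and 1020.0 along the dose series, and 842 with spironolactone against 1020.0 with 100 nM aldosterone alone. Its second probe set kept that direction: 100 nM aldosterone over ethanol gave 0.45, and the spironolactone library over 100 nM alone gave -0.56. The NAD synthesis gene Nampt differed by 0.19 for 100 nM aldosterone against ethanol and by -0.26 for spironolactone against 100 nM aldosterone alone. Its second probe set differed by -0.10 and 0.02.

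Genes known to respond when Per1 is lost in cells of the distal nephron or collecting duct were read next. The list was not divided by the direction of that response, so its counts and medians do not show whether the genes follow Per1. Of 7 listed, 6 entered. With 100 nM aldosterone 3 were higher and 3 lower than in ethanol (48.7% and 51.3% of all genes), with a median of 0.03. At least 1.5-fold higher were 1 of the 6 with 100 nM aldosterone than in ethanol (Scnn1a, at 0.59; 2.39% of all genes), 2 with 1 nM (Scnn1a at 0.62 and Edn1 at 0.79; 2.61%) and 1 for spironolactone against ethanol (Scnn1a; 2.17%). Scnn1a, which encodes the alpha subunit of the epithelial sodium channel, had 58.2, 89.3 and 87.5 along the dose series and 99.2 with spironolactone, against 87.5 with 100 nM aldosterone alone. The ethanol library was thus the low one, and the difference for spironolactone against ethanol, 0.77, was the largest of the Scnn1a differences. Edn1, which encodes endothelin, had 45.7, 78.7 and 59.6 and was highest with 1 nM aldosterone, with its ethanol signal under the filter. Wnk1, a kinase that acts on the sodium chloride cotransporter, had 6887, 7413 and 6878, and 8372 with spironolactone against 6878 with 100 nM aldosterone alone. For spironolactone against 100 nM aldosterone alone all 6 were higher, where 49.3% of all genes were, with a median of 0.18. Among them Edn1 differed by only 0.01, and Slc12a3, the listed gene under the filter, was lower, at -1.48. Past 1.5-fold were 0 of the 6 (1.83% of all genes higher and 2.51% lower). The second Wnk1 probe set went the other way there, at -0.19 beside 0.28 for the brightest, and so did that of Ube2e3, a ubiquitin-conjugating enzyme gene named after its values were seen, at -0.19 beside 0.08. The order of the libraries at Per1 was not seen at Scnn1a, Edn1 or Wnk1.

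Per1 can also be induced together with immediate early genes through cAMP or serum. Of 10 such genes 9 entered. With 100 nM aldosterone 2 were higher and 7 lower than in ethanol (48.7% and 51.3% of all genes), with a median of -0.14. Past 1.5-fold were 0 of the 9 (2.39% of all genes higher and 1.72% lower). Junb, an AP-1 subunit, differed by -0.39 in that comparison, the zinc finger gene Egr1 by -0.23 and the nuclear receptor gene Nr4a1 by -0.15. These were named for their largest difference in any comparison, and in this one Ier2, at -0.25, exceeded Egr1 and Nr4a1 in size. The highest difference of the 9 there was 0.09, at Crem, beside 1.19 at Per1. The second probe set of Crem, above the filter with a mean of 186, differed by 0.31 in that comparison and by 0.67 for 100 nM against 1 nM aldosterone.

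The genes whose pattern over the 4 libraries lay nearest to that of Per1 were found by the Euclidean distance between log2 signals, each gene centred on its own mean. Of 11056 other genes the nearest with a gene name other than a clone name were Rab11fip4, Tsc22d3, Sry, Sgk1, Tcl1b4, Rasd1, Irf7 and Zfp874b, at distances of 0.17 to 0.33. Per1 itself lay 1.01 from its own mean, so that a gene with no change over the libraries would lie at that distance. Tsc22d3, the gene of the steroid-induced leucine zipper protein GILZ, was at 0.22, the rank of 2. It had 711, 703 and 1365 along the dose series, and 994 with spironolactone against 1365 with 100 nM aldosterone alone. Its second probe set, also above the filter, differed by 0.63 for 100 nM aldosterone against ethanol and by -0.22 for spironolactone against 100 nM aldosterone alone. Sgk1, the aldosterone-induced kinase, ranked 4, at 0.26. It differed by 1.18 for 100 nM aldosterone against ethanol and by -0.35 for spironolactone against 100 nM aldosterone alone.

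Rasd1, a dexamethasone-induced small GTPase gene, had 74.7, 58.0 and 135 along the dose series and 101 with spironolactone, against 135 with 100 nM aldosterone alone. Irf7, an interferon regulatory factor gene, had 112, 113 and 208, and 186 with spironolactone against 208 with 100 nM aldosterone alone. Rab11fip4, Sry, Tcl1b4 and Zfp874b were dim, with mean signals between 56.3 and 79.9. All 4 lay under the filter with 1 nM aldosterone, and Sry (42.0) and Zfp874b (45.1) also in ethanol, so that they entered through the libraries where they were high, which is the pattern they are listed for. The second probe sets of Rab11fip4 and Sry, both under the filter, differed by 1.46 and -0.61 for spironolactone against 100 nM aldosterone alone. The steroid-induced Klf9 lay at 0.65, ranked 120, and Fkbp5 at 1.03, ranked 5568. The place of Fkbp5 rests on its brightest probe set, which differed by 0.40 for 100 nM and 0.52 for 1 nM aldosterone against ethanol and by -0.29 for spironolactone against 100 nM aldosterone alone. Its second probe set, also above the filter with a mean of 242, differed by 0.72, 0.07 and -0.39 in these comparisons and by 0.32 for spironolactone against ethanol: ethanol and 1 nM aldosterone low, 100 nM highest and spironolactone between, as at Per1. The second probe set of Klf9, with a mean of 1497, differed by 0.33 for 100 nM aldosterone against ethanol, beside 0.45 for the brightest. It was not lower with spironolactone than with 100 nM aldosterone alone, at 0.03 beside -0.17 for the brightest. Klf9 and Fkbp5 had been on the same list as Sgk1 and Tsc22d3, of which 7 members entered. Of these, 5 were higher with 100 nM aldosterone than in ethanol (48.7% of all genes), with a median of 0.40. Sgk1 and Tsc22d3 were the 2 at least 1.5-fold higher (2.39% of all genes). Of the clock genes that entered, Cry2 was the least distant from Per1, at 0.91 (ranked 1549), and Cry1 the most distant, at 1.40 (ranked 10682). The distance of Nr1d1, under the filter, was not measured. With 4 libraries a likeness of pattern is a description.

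**Figure D4:**
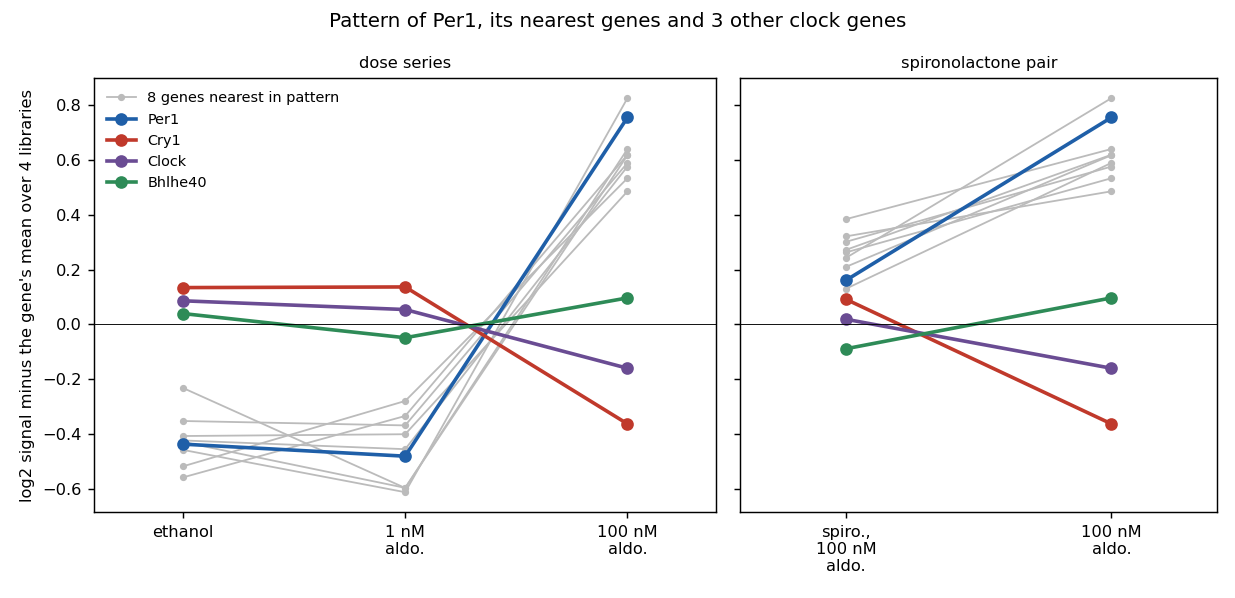
Log2 signal minus each gene's mean over the 4 libraries, for Per1, Cry1, Clock and Bhlhe40 (coloured) and the 8 genes nearest to Per1 in pattern (grey); left the dose series, right spironolactone beside 100 nM aldosterone alone. By the brightest probe sets, drawn here, Per1 and its 8 nearest genes were highest with 100 nM aldosterone, where Cry1 and Clock were lowest. The next brightest Clock probe sets, also above the filter, were highest with 100 nM aldosterone, at 477 and 275.

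The trimmed mean signal was 500.003 in every library, a value that scaling sets, and the medians lay between 58.9 and 61.7. Of 8 distal convoluted tubule markers 5 were at or above the filter, among them Wnk1, Stk39 and Wnk4. Of all 18193 named genes 11057 were, so that such a count says little on cell identity. The defining transporter of that segment, Slc12a3, had signals between 3.93 and 17.2, and Calb1, another marker on that list, between 1.65 and 20.8. All 4 proximal tubule markers (Slc34a1, Lrp2, Slc5a2 and Aqp1) were at or above the filter, with a summed signal of 2742 to 3058, most of it from Aqp1. The markers of thick ascending limb, collecting duct, intercalated cells and fibroblasts were under it (0 of 2, 0 of 4, 0 of 3 and 0 of 4). Of the 4 general epithelial markers 1, Epcam, was above the filter, and Cdh1, Krt8 and Krt18 were not. Of the endothelial and leukocyte markers Kdr and Cd68 reached it (1 of 3 each), with summed signals of 82.4 to 117 and 101 to 144.

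Some of these markers differed between the libraries. The endothelial receptor gene Kdr had 51.1, 73.1 and 85.1 along the dose series, a difference of 0.73 for 100 nM aldosterone against ethanol, and it differed by 0.70 for spironolactone against ethanol. The lysosomal Cd68 was lower in both comparisons, by -0.49 and -0.53. The proximal tubule glucose transporter gene Slc5a2 had 45.4, 83.2 and 52.6, and 88.0 with spironolactone against 52.6 with 100 nM aldosterone alone. Pvalb, the parvalbumin gene of the early distal convoluted tubule, had 51.4, 91.5 and 61.1, and 38.3 with spironolactone against 61.1 with 100 nM aldosterone alone. Slc5a2 was thus highest with spironolactone and Pvalb with 1 nM aldosterone. The second Slc5a2 probe set, with a mean signal of 23.7, differed by -1.22 for 1 nM aldosterone against ethanol, beside 0.87 for the brightest. The ethanol signals of Kdr, Slc5a2 and Pvalb were under the filter. The part of these markers in the differences of the clock genes was not tested. The transfected receptor, being human, cannot be checked here.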

How the data were processed

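The authors deposited 1 table of probe set intensities on a linear scale. MAS5 made them, per the submitters' processing notes. Its version, scaling target and detection calls, and a genome build, are not stated in the labels. RNA (250 ng) was labelled as biotin cRNA for an Affymetrix 3' array, 1 array per treatment; nothing was pooled as far as the labels say. The number of sample columns of other series was 0. Of 45101 probe sets 64 controls were left out; the platform annotation gave 34945 others 1 symbol, of which 34741 matched RefSeq by Entrez identifier, changing 0 symbols.

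From the deposited intensities, log2 values were taken with no offset and no further scaling (python 3.11.15, pandas 2.3.3, numpy 2.4.6). Differences were taken for 5 pairs of libraries, and genes past 1.5-fold counted. For each gene, its difference was placed among those of the 500 entered genes nearest in mean signal, which describes these libraries and is no test. Simulated data were used to check only that added differences were recovered and counted past 1.5-fold. The simulated noise was the same at every signal level, unlike that of the arrays. The placing among neighbours and the pattern search were not run on simulated data.

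The genes, lists and motifs were chosen with earlier results of these data known. Named are all 10 clock genes, the listed genes past 1.5-fold in any comparison or else the 3 largest of a list, the 8 nearest to Per1 in pattern, and Sgk1, Tsc22d3, Fkbp5 and Klf9. Alternatives were the probe set, quantile normalization, median centring, an offset of 16, raising signals to the filter, other filters and a 2-fold limit.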

Additional observations from a re-analysis of the deposited data

How the results depend on the processing

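Per1 kept its direction in all 5 comparisons under 5 alternatives each, with 1.14 to 1.21 for 100 nM aldosterone against ethanol, -0.04 to -0.02 for 1 nM aldosterone against ethanol, 1.18 to 1.24 for 100 nM against 1 nM, -0.59 to -0.57 for spironolactone against 100 nM aldosterone alone and 0.57 to 0.63 for spironolactone against ethanol. Of these alternatives, the median over probe sets and raising signals to the filter could not change Per1. It has 1 probe set and no signal under the filter. Among the values of the other clock genes, the median could change only those of Per3 and Clock. Raising signals to the filter could change only those of Nr1d1. No second probe set of Per1 could be tried, and a second probe set as the anchor of the pattern search was not run. Over the other clock genes 17 of 245 alternative values moved by more than the SD of the 500 signal neighbours, 7 of them at Clock and 4 at Nr1d2, 14 of them with another probe set or the median over probe sets and 3 at Nr1d1 with signals raised to the filter, which sets its differences to 0; beyond that the cause was not tested. The 8 genes nearest to Per1 were the same 8 after quantile normalization.

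The clock genes at least 1.5-fold higher with 100 nM aldosterone than in ethanol, or than with 1 nM, were 2 without the filter (Nr1d1 joined) and 0 with the filter at the 75th percentile of signal, which leaves out Per1. For those lower with spironolactone than with 100 nM aldosterone alone the count was 2 without the filter and 0 with that higher filter, quantile normalization, centring, the offset of 16 or a 2-fold limit. For those higher with spironolactone than in ethanol it was 0 with the higher filter, the offset or the 2-fold limit.

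Counts of all genes higher and lower, in the order of comparisons above, were 2547 and 2199, 2689 and 2139, 2285 and 2459, 2179 and 2621 and 2339 and 2427 without the filter, 16 and 13, 22 and 22, 22 and 10, 15 and 17 and 14 and 13 with the higher filter, and 82 and 41, 72 and 39, 46 and 46, 42 and 60 and 46 and 50 at 2-fold; they follow from the number of genes let in and the limit. No paired analysis was possible because each treatment has 1 library, and none could be left out. Without detection calls, signals near or under 55.9 carry little information on direction.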
